A study of Mus musculus with 7 samples.

Results

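The ribosomal protein pseudogenes of the expression table were taken as all rows whose symbol begins with Rpl or Rps and contains -ps, which gave 261 of 40743 rows. RNA sequencing of retinal microglia (rMG) was available for 7 libraries labelled Irf8 KO, of which 3 were from unlasered mice and 4 from mice taken a week after laser treatment of the retina. All mice of both groups had the genotype Irf8-/- Cx3cr1GFP/+ on the C57BL/6J background, where the GFP allele of Cx3cr1 marks microglia and related myeloid cells, and their age is not given in the labels. Cells were sorted as CD45low, CD11b+, GFP-positive, Ly6C- and Ly6G-, and each library pooled 3 to 4 mice with 10000 cells on average. From lasered mice the central 70% of the retina was used, while no such restriction is given for unlasered mice, so laser treatment and the region sampled cannot be told apart. Wild-type libraries were not analysed here.

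A ribosome is built from a large subunit, whose proteins are encoded by Rpl genes, and a small subunit, whose proteins are encoded by Rps genes. The mRNAs of these genes are abundant, and in the course of evolution many were copied back into DNA and inserted elsewhere in the genome. Such a copy, a processed pseudogene, has no introns and usually lacks a promoter of its own, and it keeps long stretches of the mature mRNA of its parent gene. A short read from the parent mRNA may therefore align to the copy equally well. In this report the parent of a pseudogene is the gene named by the part of its symbol before -ps.

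Of the 261 rows, 260 were matched by identifier to GENCODE M21 (GRCm38), where 249 are annotated as processed pseudogenes, 5 as transcribed processed pseudogenes and 6 as protein-coding genes. A total of 254 had 1 exon, and 33 lay on the X chromosome, or 12.7% compared with 9.27% of all 10236 processed pseudogenes of that annotation. Several of the 33 are copies of Rps12 that lie together, between chrX:123514427 and chrX:125987364, and the share without this group is not given. The rows named 61 parents, of which 59 had a row of their own. Among these parents, Rps4l is itself annotated as a transcribed processed pseudogene. The other parents, Rpl13 and Rpl48, were not analysed here. Rpl31 had the most pseudogene rows with 22, followed by Rps12 with 21, Rpl21 and Rps19 with 13 each and Rpl7a with 11. Over 258 rows with an alignment of at least 100 bases to the parent mRNA, the median identity was 96.4%, ranging from 76% to 100%, and 13 rows were identical to the parent over the whole alignment.

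The following stretches of 70 bases, 35 on each side of a junction of coding exons, show how much of a read can be shared by parent and copy. They were taken from GENCODE M21 and are written 5′ to 3′ in the direction of the mRNA. In a parent, capitals mark the 2 bases that meet at the junction, and in a copy, capitals mark differences from the parent. Rpsa and its copies are shown because they had the largest rises, and Rpl10a because a copy is identical to it. Rps25 is shown as a family where neither parent nor copy passed the test between groups, which held for other families too.
Rpsa: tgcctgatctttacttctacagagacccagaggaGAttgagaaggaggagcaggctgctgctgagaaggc
Rpsa-ps10: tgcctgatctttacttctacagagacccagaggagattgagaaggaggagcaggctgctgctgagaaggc
Rpsa-ps4: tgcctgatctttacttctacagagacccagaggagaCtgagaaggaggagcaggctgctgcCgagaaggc
Rpsa-ps11: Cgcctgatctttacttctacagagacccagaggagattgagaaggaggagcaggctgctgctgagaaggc
Rpl10a: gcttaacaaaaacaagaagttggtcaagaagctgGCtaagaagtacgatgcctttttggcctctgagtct
Rpl10a-ps1: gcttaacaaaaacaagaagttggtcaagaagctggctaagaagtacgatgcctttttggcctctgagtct
Rpl10a-ps2: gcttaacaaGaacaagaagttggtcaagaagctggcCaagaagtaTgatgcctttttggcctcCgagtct
Rps25: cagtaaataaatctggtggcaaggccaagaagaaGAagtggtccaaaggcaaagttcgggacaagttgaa
Rps25-ps1: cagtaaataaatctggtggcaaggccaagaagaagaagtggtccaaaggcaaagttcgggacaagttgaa

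The 70-base stretch crosses the 5th junction of Rpsa (chr9:120127689-120132369, plus strand), the 4th of Rpl10a (chr17:28328471-28331033, plus strand) and the 2nd of Rps25 (chr9:44407139-44410427, plus strand), and all of it is coding sequence. Rpsa-ps10 is at chr3:150072658-150073542 on the minus strand, Rpl10a-ps1 at chr1:64993951-64994604 on the minus strand and Rps25-ps1 at chr6:145266400-145266777 on the plus strand, and each is a single uninterrupted exon outside annotated protein-coding genes. Rpsa-ps10, Rpl10a-ps1 and Rps25-ps1 had 0 differences from the parent in the printed stretch, Rpsa-ps11 had 1, Rpsa-ps4 had 2 and Rpl10a-ps2 had 4.

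Levels are given as CPM, reads of a row divided by all reads of its library such that the rows of a library sum to 1000000. Libraries held 20427558 to 36022954 reads in the unlasered group and 37133297 to 45919042 in the lasered group, and 3 reads, taken as the limit of detection, corresponded to at most 0.147 CPM, which covers counting error only. The 8 genes of a microglia and macrophage list summed to 25596 to 30280 CPM in unlasered and 23954 to 31107 CPM in lasered libraries, and 0 of 8 were called changed. Rod photoreceptor RNA differed between the groups. The 13 rod genes summed to 2055 to 18853 CPM in unlasered and 303 to 950 CPM in lasered libraries, with 12 of 13 called lower and none at 0, and the part of rod RNA in the results that follow was not tested beyond leaving out libraries. Genes of Mueller glia summed to 429 to 791 and 198 to 590 CPM, and those of monocytes to 16.6 to 60.3 and 11.3 to 168 CPM, and none of the 4 of 5 and 2 of 3 genes that passed the level filter was called. Genes of the pigment epithelium summed to at most 1.37 CPM and were not tested. Genes of erythrocytes, also not tested, summed to 47.4 CPM in lasered library 1 and to at most 0.392 CPM in the other 6 libraries. Irf8 itself was at 509 ± 20.6 CPM (SD, n = 3) in the unlasered and 496 ± 57.6 CPM (SD, n = 4) in the lasered libraries labelled Irf8 KO. It is listed only jointly with an overlapping gene, so the row does not check the label.

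All 261 rows together reached 2279.6, 2457 and 1880.4 CPM in the unlasered libraries and 4028, 4109, 3547 and 3469 CPM in the lasered libraries. Every lasered library was above every unlasered library, and the mean rose from 2206 ± 295 CPM (SD, n = 3) to 3788 ± 327 CPM (SD, n = 4), a ratio of 1.72. The 59 parents summed to 2328, 2509 and 1928 CPM in the unlasered and 4032, 4106, 3553 and 3499 CPM in the lasered libraries, a ratio of 1.68. No test was set for these sums.

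Taking only rows whose parent was listed, the pseudogenes held 48.1%, 48.2% and 48% of the reads of pseudogenes and parents together in unlasered libraries. In lasered libraries they held 48.8%, 48.7%, 48.8% and 48.1%. The mean share was 48.1% ± 0.108 (SD, n = 3) and 48.6% ± 0.321 (SD, n = 4), so that the difference of 0.475 percentage points was small and the ranges overlapped. The plot of summed levels by library shows the rise of both sums and the near constant share.

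**Figure D1:**
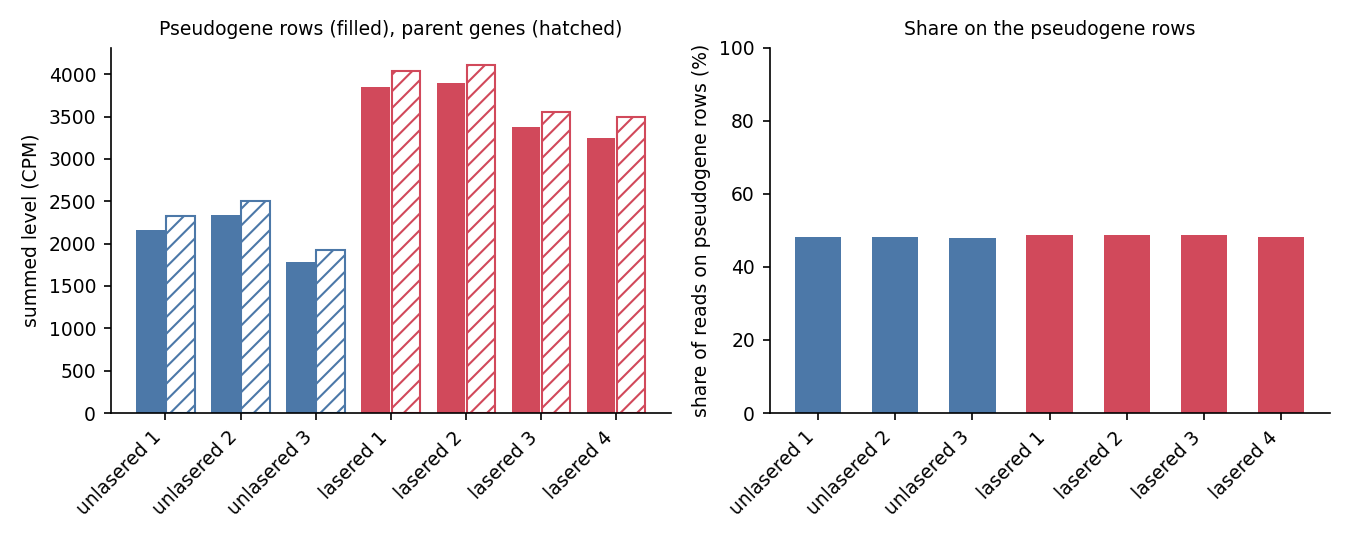
Left, summed level in CPM of the ribosomal protein pseudogene rows with a listed parent (filled bars) and of their 59 parent genes (hatched bars) in each library, blue for unlasered and red for lasered; right, the share of these reads on the pseudogene rows in percent. Both sums were higher in all 4 lasered libraries, while the share lay between 48% and 48.8% in every library.

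The rows differed widely in level. The highest was Rpl3-ps1 with a mean of 161 CPM over the 7 libraries, the median row had 3.59 CPM, and 79 rows were below 1 CPM on average. The 10 highest rows held 26% and the 50 highest 71.2% of all pseudogene CPM. In 4 rows no library had a read, and in 32 rows no library had more than 3 reads. After Rpl3-ps1 the highest rows were Rpl13-ps6, Rpl14-ps1, Rpl19-ps11, Rps25-ps1, Rpl9-ps6, Rpl10a-ps1, Rpl10-ps3, Rpl3-ps2 and Rpl10-ps6. Of these, Rpl10-ps6 was listed only jointly with Ide, an insulin-degrading protease in whose span it lies, and Rpl19-ps11 in part jointly with another predicted gene. Among all 261 rows, 19 carried such joint reads. The sequencing kit does not mark strand, so that for the 51 rows inside a protein-coding gene of the opposite strand reads of the copy and of the host gene cannot be told apart either.

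Level went together with the amount of sequence shared with the parent. For each pseudogene, every window of 50 bases was looked up in the transcripts of the parent, and levels were divided by length, with the annotated transcript of the parent for comparison. In 46 rows without a shared window, the median was 0.0171 CPM, and the median level per kb was 0.0838% of the parent. In 91 rows with up to 25% of windows shared, the median level per kb was 9.62% of the parent, in 49 rows with over 25% to 50% it was 40.8%, and in 32 rows with over 50% to 75% it was 81.2%. In 24 rows with over 75% of windows shared it was 132%, and in 12 rows that shared every window it was 160%. Over 254 rows the rank correlation of shared windows and relative level was 0.91 (Spearman's rho, a description across rows of the same libraries, where rows of a family share a parent). The percent identity of the alignment gave a rho of 0.88.

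**Figure D2:**
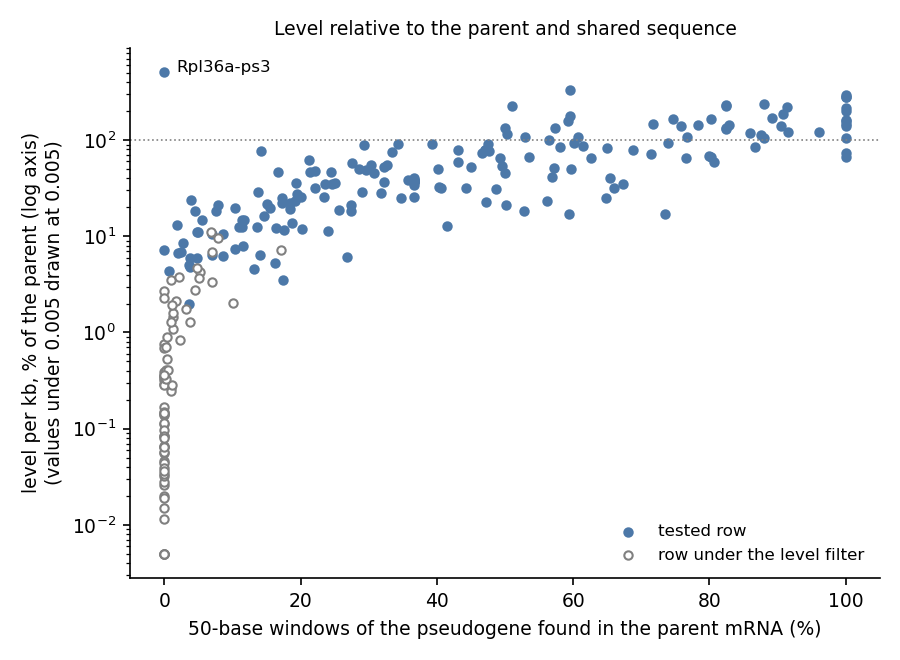
Each point is a pseudogene row. The horizontal axis gives the percent of its 50-base windows that occur in a transcript of its parent, and the vertical axis, on a log scale, its mean level per kb in percent of the parent's level per kb (dotted line, 100%). Filled points passed the level filter of 1 CPM in 3 or more libraries. Relative level rises with shared sequence from a median of 0.0838% without a shared window to 160% with all windows shared, and Rpl36a-ps3 stands apart at 513% with no shared window.

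To ask which rows differed after laser treatment, log2(CPM + 1) was fitted with limma over the 17496 rows of the table that reached 1 CPM in 3 or more libraries, and 184 of the 261 pseudogene rows passed this filter. Among all tested rows 3.86% were called higher and 3.07% lower in lasered libraries, at an adjusted p under 0.05. Of the pseudogene rows, 71 of 184 (38.6%) were called higher and 0 lower. At an unadjusted p under 0.05, 139 of the 184 passed, compared with 22.7% of all tested rows. On the recovered reads, edgeR called 69 higher and 0 lower, compared with 3.78% and 3.45% of all rows. DESeq2 called 95 higher and 0 lower, compared with 6.73% and 6.52% of all rows. The median log2 fold change of the tested pseudogene rows was 0.63, with quartiles of 0.46 and 0.82, beside a median of -0.01 over all tested rows. All lasered libraries lay above all unlasered libraries in 150 of the 184 rows, compared with 10.4% of all tested rows. With lasered library 1, 2 or 3 left out, 23, 18 and 35 rows were called higher, and with unlasered library 1 left out 41. Without unlasered library 2, which had the most rod RNA, 51 were called. Calls over all tested rows, in either direction, fell from 1213 to 417, 264 and 436 without lasered library 1, 2 or 3. They were 774 and 663 without unlasered library 1 or 2. Without lasered library 4, 56 of the 71 pseudogene rows were still called, with 797 calls over all rows. Without unlasered library 3, 49 of the 71 were still called, with a median log2 fold change of 0.53. In that fit the calls over all rows did not fall and were 1248.

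The 77 rows below the filter had means of at most 0.813 CPM. In 51 of them the lasered mean was above the unlasered mean, in 22 it was below, and 4 had no reads. Of the rows that passed the filter, 17 reached 1 CPM in fewer than 3 unlasered libraries, and 1 of these was called. The other pseudogene symbols of the table, 689 rows with -ps in the symbol that are not of ribosomal proteins, gave 194 tested rows, of which 6 (3.09%) were called higher and 0 lower with a median log2 fold change of -0.0009. In summed level these other rows had a ratio of 1.18 between lasered and unlasered means.

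The parents moved in the same direction. Of 59 tested parents 32 were called higher and 0 lower, with a median log2 fold change of 0.70. Without lasered library 1, 2 or 3, 15, 13 and 21 parents were called higher, where calls over all rows fell to 417, 264 and 436. In 181 pairs of a tested pseudogene and a tested parent, both were called higher in 61, the pseudogene alone in 7, the parent alone in 33 and neither in 80. The log2 fold change of the pseudogene lay within 0.25 of that of the parent in 145 of 181 pairs. This count was not taken for pseudogenes set against parents of other families. The quartiles of the parents were 0.48 and 0.90, near the 0.46 and 0.82 of the pseudogene rows. The count alone therefore does not show a likeness particular to each pair. The fold changes of pseudogene and parent had a Spearman's rho of 0.74 over these pairs, and over 55 families, taking the median of the pseudogenes, a rho of 0.87. Reads of parents and copies come from the same libraries and in part from the same sequence, and no p-value is given for these correlations. In 23 families with at least 3 tested rows, the SD within a family had a median of 0.13 on the log2 scale, whereas the family medians, between 0.35 and 1.22, had an SD of 0.21.

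**Figure D3:**
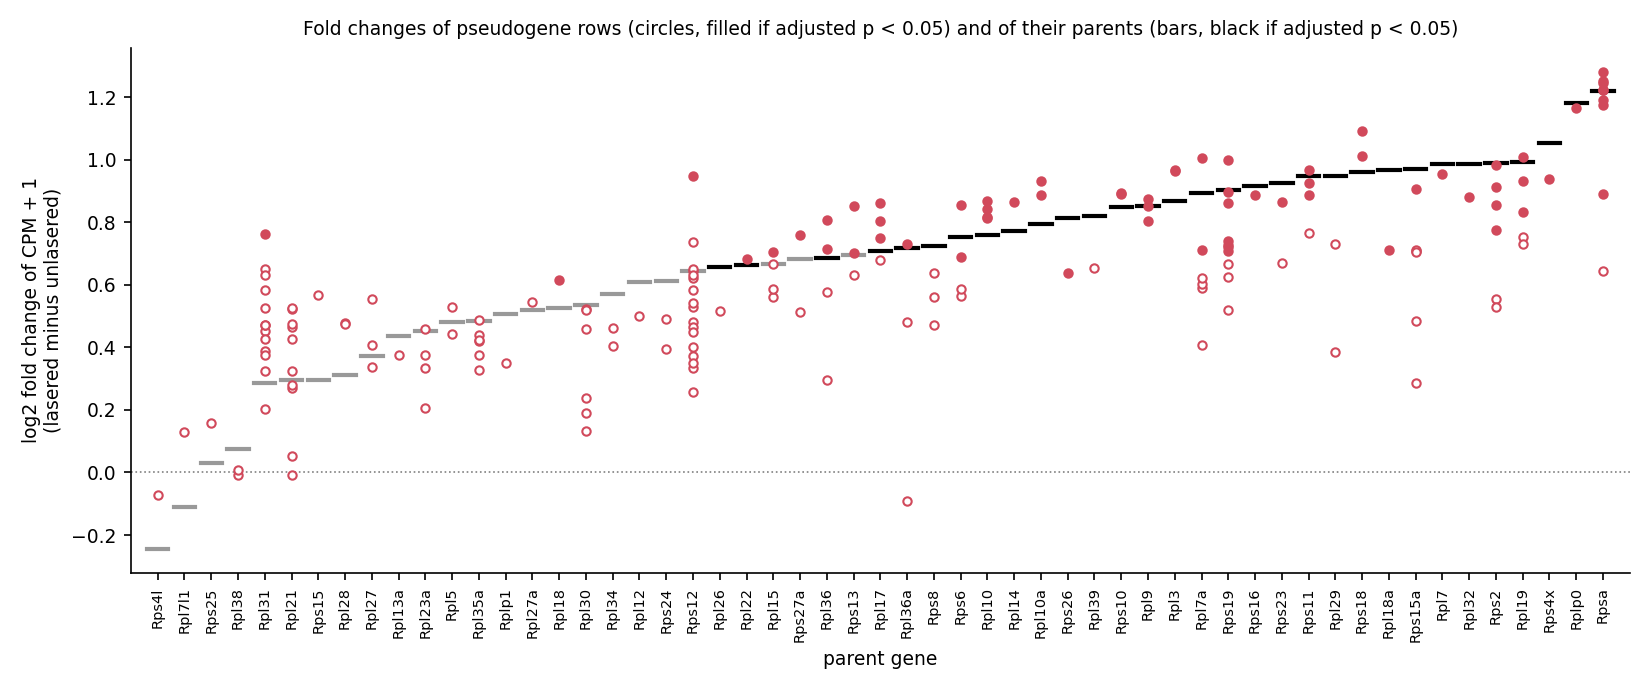
For each parent gene with a tested pseudogene row, the log2 fold change of CPM + 1 in lasered minus unlasered libraries is shown for the parent (bar, black if adjusted p is under 0.05, grey otherwise) and for each of its pseudogene rows (circles, filled if adjusted p is under 0.05). Parents are in order of their fold change. The bars run from -0.24 for Rps4l, itself annotated as a pseudogene, and -0.11 for Rpl7l1 to 1.22 for Rpsa. The pseudogene lies within 0.25 of the parent in 145 of 181 pairs, a count not taken for parents of other families. Rpl36a-ps3 lies well below the bar of Rpl36a.

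Among the copies of small subunit genes, those of Rpsa had the largest rises. Rpsa encodes a protein of the small subunit that is also known as a laminin receptor. The row Rpsa-ps10 was at 28.6, 27 and 26 CPM in unlasered and 67.2, 76.3, 63.9 and 63.6 CPM in lasered libraries, which did not overlap. Its log2 fold change was 1.28 ± 0.13 (SE, limma adjusted p = 0.0026). The parent was at 31.1, 32.1 and 28.1 CPM in unlasered and 72.4, 82.4, 66.7 and 68 CPM in lasered libraries, and rose by 1.22 ± 0.13 on the log2 scale (SE, limma adjusted p = 0.004). Of the 9 pseudogene rows of Rpsa, 8 were called higher, and in all 9 every lasered library was above every unlasered library. That order held in 81.5% of all tested pseudogene rows and in 10.4% of all tested rows. Counts of this order in the other families are to be read beside these shares. The rows Rpsa-ps11, Rpsa-ps9, Rpsa-ps2, Rpsa-ps4, Rpsa-ps12 and Rpsa-ps1 had log2 fold changes of 1.25, 1.25, 1.22, 1.22, 1.19 and 1.18, and their ratios to Rpsa changed by between -0.04 and 0.03 on the log2 scale. They lie on 5 different chromosomes and share between 17.3% and 60.6% of their windows with Rpsa. In Rpsa-ps11, 80.8% of the windows occur in no other annotated transcript. It was at 3.77, 3.88 and 3.61 CPM in unlasered and 9.67, 11.7, 9.56 and 10.4 CPM in lasered libraries, again without overlap.

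Copies of Rps18, which encodes a protein of the head of the small subunit, followed. Rps18-ps3 was at 23.4, 23.1 and 18.5 CPM in unlasered and 48.8, 52.8, 41.7 and 45.6 CPM in lasered libraries, with a log2 fold change of 1.09 ± 0.15 (SE, limma adjusted p = 0.0082). Rps18-ps1 rose by 1.01 and Rps18 itself by 0.96. Rps19, in which mutations cause Diamond-Blackfan anaemia in humans, had 10 tested copies, of which 7 were called higher, with log2 fold changes from 0.52 to 1.00 beside 0.90 in the parent, and in all 10 every lasered library was above every unlasered library. Of 17 tested copies of Rps12, only Rps12-ps24 was called, at 0.95 and an adjusted p of 0.022 in limma, while Rps12 itself was at 0.64 with an adjusted p of 0.059 in the same fit. All lasered libraries were above all unlasered libraries in 15 of the 17 copies, beside 81.5% of all tested pseudogene rows and 10.4% of all tested rows. Several copies of Rps12 lie near each other on the X chromosome and share most of their windows with other pseudogene rows. In Rps12-ps11 and Rps12-ps13, for example, 100% of windows occur in other pseudogene rows and 0% in their own row alone. Reads of such copies cannot be told apart, so the 17 copies are not independent.

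Copies of large subunit genes included the rows with the most reads. Rplp0 encodes the base of the ribosomal stalk, to which translation factors bind. Its copy Rplp0-ps1, listed only jointly with Flg, a gene of the skin barrier, was at 12.6, 16.6 and 13 CPM in unlasered and 32.6, 36.2, 27.7 and 34.4 CPM in lasered libraries. The log2 fold change was 1.16 ± 0.16 (SE, limma adjusted p = 0.0088), and that of Rplp0 was 1.18. Rpl3, whose protein reaches toward the site of peptide bond formation, had copies on the X chromosome. Rpl3-ps1 was at 102, 117 and 93.3 CPM in unlasered and 214, 223, 185 and 194 CPM in lasered libraries, a log2 fold change of 0.97 ± 0.13 (SE, limma adjusted p = 0.0074). It is 99.8% identical to Rpl3 over the alignment. Rpl3-ps2 rose by 0.97 and Rpl3 by 0.87. Per kb, Rpl3-ps1 was at 220% of the level of Rpl3.

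The copy with a sequence identical to its parent over all 654 bases, Rpl10a-ps1, was at 45.1, 45.4 and 36.9 CPM in unlasered and 87, 83.5, 77.5 and 78.8 CPM in lasered libraries. It rose by 0.93 and Rpl10a by 0.80 on the log2 scale, and all of its windows occur in Rpl10a. Rpl13-ps6, Rpl14-ps1, Rpl19-ps11, Rpl9-ps6, Rpl10-ps3 and Rpl10-ps6 rose by 0.79, 0.86, 1.01, 0.87, 0.81 and 0.87, and the parents Rpl14, Rpl19, Rpl9 and Rpl10 by 0.77, 0.99, 0.85 and 0.76. Of 6 tested copies of Rpl7a 2 were called higher, and in all 6 every lasered library was above every unlasered library, beside a log2 fold change of 0.90 in Rpl7a (limma adjusted p = 0.022). Of 10 tested copies of Rpl21 none was called, with values from -0.01 to 0.52 beside 0.30 in Rpl21, and in 5 of them every lasered library was above every unlasered library. Over all tested pseudogene rows that order held in 81.5%, and over all tested rows in 10.4%.

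For Rps25 and Rpl38 the fold changes of parent and copies were small, and none of these rows was called. A lack of calls in parent and copies also held for other families, among them Rpl21, Rpl30 and Rpl35a. Rps25, a small subunit protein used in initiation at internal ribosome entry sites, was at 72.7, 74.9 and 59.5 CPM in unlasered and 71.9, 67.4, 75.9 and 65.8 CPM in lasered libraries. Rps25-ps1, the 5th highest row, was at 70, 75.2 and 56.7 CPM in unlasered and 74.5, 71.8, 77.4 and 75.1 CPM in lasered libraries. The groups overlapped in both, and the log2 fold changes were 0.03 for Rps25 and 0.16 ± 0.13 (SE, limma adjusted p = 0.54) for the copy. Both copies of Rpl38, Rpl38-ps1 and Rpl38-ps2, had values of 0.01 and -0.01, beside 0.08 in Rpl38. The parents Rps4l, itself annotated as a transcribed processed pseudogene, and Rpl7l1 had values below 0, at -0.24 and -0.11. Their copies Rps4l-ps and Rpl7l1-ps1 were at -0.07 and 0.13, and none of these rows was called. The copies of Rpl38 and these families are named after their values were seen.

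The ratio of each pseudogene to its parent was tested in a separate limma fit of log2(CPM + 1) differences over all 322 pairs of the table whose pseudogene and parent passed the filter, of which 181 were ribosomal. The median change of the ratio was -0.05 in the ribosomal pairs and 0.02 in the 141 other pairs. Of all pairs 2.48% had a higher and 3.73% a lower ratio in lasered libraries. Of the 181 ribosomal pairs, 5 had a higher and 10 a lower ratio, compared with 3 higher and 2 lower among the 141 other pairs. An unadjusted p under 0.05 was found in 54 of the 181 ribosomal pairs. Over all 322 pairs, which include the ribosomal ones, it was found in 74 (23%). Lower ratios numbered 59 without a filter on low values, 21 with a mean of at least 10 reads as the filter and 18 with ribosomal pairs alone in the fit. The first 2 settings tested 257 and 205 pseudogene rows in place of 184, and the added rows had means of at most 0.813 CPM. Shares over all pairs are not given for these settings. The addition of 1 CPM before taking logs holds back the change of rows with few reads. With 0.1 in its place the same 5 were called higher, and only 2 of the 10 lower ones, Rpl36a-ps3 and Rps15a-ps8, were called. Without lasered library 1, 2, 3 or 4, the calls were 2, 0, 0 and 3 higher and 5, 2, 1 and 5 lower, and without unlasered library 1 or 2 they were 2 and 1 higher and 6 and 2 lower. Rpl36a-ps3 was called lower under all 14 alternatives run for this fit, and Rps15a-ps8 under 13 of them.

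The pair that changed most was Rpl36a-ps3 and Rpl36a. Rpl36a encodes a protein of the large subunit and lies on the X chromosome (chrX:134585654-134588062, plus strand), and Rpl36a-ps3 is a single exon of 321 bases at chr6:136488807-136489127 on the plus strand. Rpl36a-ps3 was at 51.6, 52.1 and 36.7 CPM in unlasered and 50, 48.8, 38.4 and 37.7 CPM in lasered libraries, and these ranges overlapped. Rpl36a was at 10.1, 10.3 and 7.8 CPM in unlasered and 18.5, 17.1, 14.2 and 14.5 CPM in lasered libraries, with no overlap, and rose by 0.72 (limma adjusted p = 0.046). The ratio of the copy to Rpl36a fell by 0.81 ± 0.06 on the log2 scale (SE, limma adjusted p = 1.3e-06). Only 87.5% of its bases were identical to Rpl36a, and none of its windows occurred there. In contrast, 81.6% of its windows occurred in Rpl36al, a relative of Rpl36a on another chromosome (chr12:69182731-69184083, minus strand), from which it differed in 1 of 321 aligned bases.

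Rpl36al was at 85.1, 85.3 and 59.9 CPM in unlasered and 84.8, 85.8, 63.7 and 67.5 CPM in lasered libraries, and its log2 fold change was -0.02 beside -0.09 in Rpl36a-ps3. The CPM of Rpl36a-ps3 were 60.6%, 61.1% and 61.2% of those of Rpl36al in unlasered and 58.9%, 56.9%, 60.2% and 55.8% in lasered libraries, whereas relative to Rpl36a they were 5.12, 5.05 and 4.7 times in unlasered and 2.71, 2.85, 2.7 and 2.6 times in lasered libraries. These CPM ratios are not per length and serve only to compare libraries. The copies of Rpl36a that resemble it, Rpl36a-ps2 and Rpl36a-ps1, had log2 fold changes of 0.73 and 0.48 (limma adjusted p = 0.037 and 0.16). Rpl36a-ps2 carries joint reads only and lies within Ddah1 on the same strand, and Rpl36a-ps1 is annotated as a protein-coding gene. Rpl36al, Rpl36a-ps1 and Rpl36a-ps2 were named after their values were seen. Of the 213 rows with a window in a coding gene, the gene with the most shared windows was the named parent in 205 and another gene in 8.

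The 5 pairs with a higher ratio were 4 copies of Rpl31, Rpl31-ps8, Rpl31-ps11, Rpl31-ps9 and Rpl31-ps18, and Rps15-ps2. The 4 copies of Rpl31 have the same parent in their ratios. Of their windows, 95.1%, 47.9%, 84.8% and 20.7% in this order occur in other pseudogene rows, so the 4 pairs are not independent. All windows of Rpl31-ps8 occur in Rpl31, so that reads of this copy and of the parent cannot be told apart. Rpl31, a protein of the rim of the peptide exit tunnel, was at 16.8, 16.1 and 11.6 CPM in unlasered and 21.2, 20.6, 15.8 and 15.4 CPM in lasered libraries, which overlapped. Rpl31-ps8, identical to Rpl31 over all 378 bases, was at 30.2, 32.5 and 23 CPM in unlasered and 48.8, 48.3, 40.7 and 35.1 CPM in lasered libraries, which did not overlap. The ratio rose by 0.30 ± 0.06 on the log2 scale (SE, limma adjusted p = 0.021). Rpl31-ps18, which shares 3.96% of its windows with Rpl31, was at 2.06, 1.99 and 1.8 CPM in unlasered and 4.46, 4.25, 3.51 and 3.82 CPM in lasered libraries. Its ratio rose by 0.48 ± 0.12 (SE, limma adjusted p = 0.038), and it was the only called row among 13 tested copies of Rpl31, with a log2 fold change of 0.76 beside 0.28 in Rpl31. The ratio of Rps15-ps2 to Rps15 rose by 0.27 on the log2 scale.

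Among the lower ratios, Rps15a-ps8 was at 2.06, 1.93 and 1.67 CPM in unlasered and 3.76, 2.43, 2.64 and 1.56 CPM in lasered libraries, which overlapped, while Rps15a rose by 0.97. The ratio fell by 0.68 ± 0.12 on the log2 scale (SE, limma adjusted p = 0.011). For Rpl29-ps5, Rpsa-ps3 and Rps15a-ps3 the ratio fell by 0.56, 0.57 and 0.49 with 1 CPM added, but changed by -0.28, -0.17 and -0.43 with 0.1 CPM added, where none of them passed the test. Rpsa-ps3, for example, had 0.685, 1.23 and 0.749 CPM in unlasered and 2.06, 2.18, 1.92 and 1.59 CPM in lasered libraries, and its lasered libraries were all above the unlasered ones. The plot of 4 families by library shows these contrasts.

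**Figure D4:**
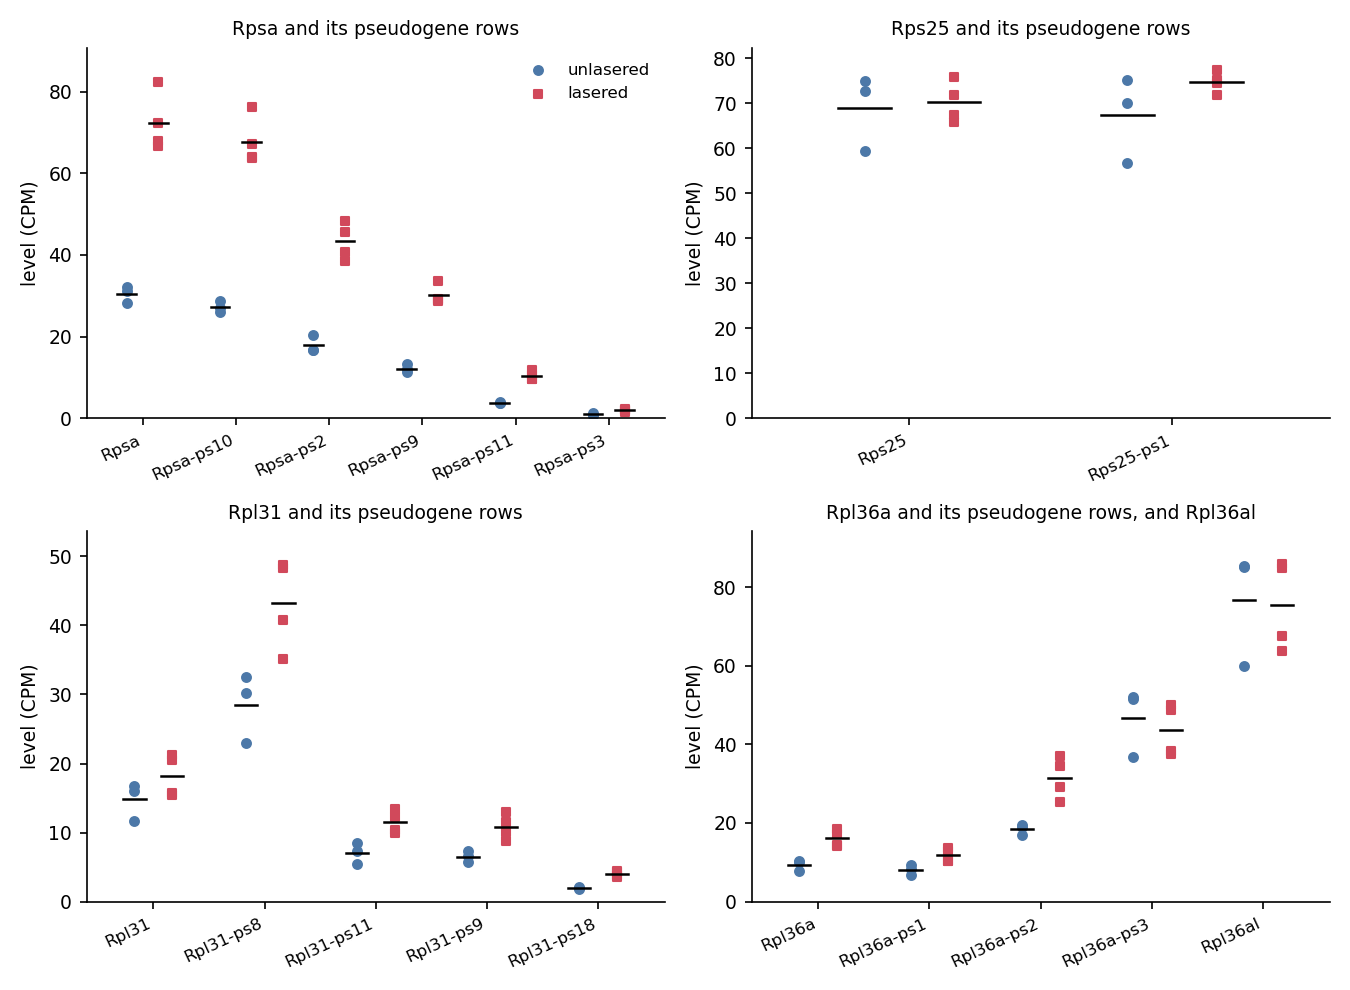
Level in CPM of the parents Rpsa, Rps25, Rpl31 and Rpl36a, of copies of each, and of Rpl36al, in the 3 unlasered (blue circles) and 4 lasered libraries (red squares), with the mean of each group as a black line. Rpsa and its copies were higher in all lasered libraries, Rps25 and Rps25-ps1 overlapped between groups, and Rpl36a-ps3 overlapped as Rpl36al did, unlike Rpl36a.

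Finally, fold changes were compared with how much of a row is found nowhere else in the annotation. In 34 tested rows with over 75% of windows in no other transcript, 12 were called higher, with a median log2 fold change of 0.60. In 68 tested rows with at most 25% of such windows, 31 were called higher, with a median of 0.65. In the rows between, 14 of 35 (over 25% to 50%) and 14 of 46 (over 50% to 75%) were called higher, with medians of 0.56 and 0.61. With edgeR, which does not add 1 CPM, the medians were 0.88 in the rows with over 75% and 0.78 in those with at most 25%. The 34 tested rows are a part of 98 whose median level was 0.221 CPM. Such rows can pass the level filter through the lasered libraries alone, which favours rows that are higher there, so these medians do not compare the groups evenly. A window counts as found elsewhere only if all 50 bases match, so that a read with 1 difference from the parent may still be counted for either row.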

How the data were processed

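Per the labels, RNA was sequenced from sorted retinal microglia of 3 unlasered and 4 lasered pools labelled Irf8 KO, and the labels do not say whether pools came from separate litters or days, so p-values measure the spread between these pools. The authors removed adapters and duplicate reads with cutadapt and FastUniq, mapped reads to the mouse genome with bowtie2, which does not split reads across introns, counted them per Ensembl gene with HTSeq and normalised them. The submitters' processing notes also list FastQC, DESeq2 and GRCm38. How reads that align equally well to several places were assigned is not given in the sources used here, and its part in the levels of copies was not tested. The deposited columns carry the heading TPM, yet they hold CPM: 100% of the values of a library were whole multiples of the worth of 1 read, within 0.1 reads, without regard to gene length. Counts were planned for, and the test for CPM was used.

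Values were compared as log2(CPM + 1) with limma 3.58.1 (trend, robust; R 4.3.3) over rows of at least 1 CPM in at least 3 libraries, two-sided, with Benjamini-Hochberg adjustment over the whole table. Ratios of pseudogene to parent were fitted likewise over all pairs. On simulated data, 85.5% of 200 genes given a 2-fold change were recovered among 17247 tested, with 7.57% false calls, and 71.7% of 60 changed pairs among 319, with 0% false calls. The simulated rows were drawn independently with an assumed spread, and the parent was held. These rates therefore need not hold for real pairs, which share reads. Alternatives were edgeR 4.0.16 and DESeq2 1.42.0 on recovered reads, other pseudocounts, filters and scalings, thinning, a replicate block and leaving out each library. Sequences, positions and windows came from GENCODE M21 (GRCm38) with Python 3.11.15 and Biopython 1.88. The pseudogene rows and all gene lists were chosen with earlier results of these data known. Named rows were the 10 with the largest fold change among called rows without overlap, the 10 highest, any called lower, the 5 pairs with the lowest p for a higher and for a lower ratio, their parents, and the 5 parents with most copies. Other named rows were chosen after their values were seen. A further gene list and the sequence of 1 family are not reported here.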

Additional observations from a re-analysis of the deposited data

Results flagged for a closer look

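The 4 lasered libraries were checked for a library that stood apart in 53 levels. Only Rpsa-ps9 was flagged, with 33.5 CPM in lasered library 2 beside 29.3 CPM in the nearest other lasered library. Chance flags about 1 in 20 such groups.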

How the results depend on the processing

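No pseudogene row or parent was called lower under any alternative run. Leaving out 1 library at a time gave 18 to 56 pseudogene rows and 13 to 28 parents called higher, 0 to 4 pairs with a higher and 1 to 8 with a lower ratio, ratios of summed CPM between 1.6 and 1.82 and differences in the pseudogene share between 0.403 and 0.633 percentage points. Calls over all rows ran from 264 to 1248 in the fits with 1 library left out. Without a filter on low values, 27 pseudogene rows and 18 parents were called higher and 59 ratios lower. Lower ratios also numbered 21 with a mean of at least 10 reads, 18 with ribosomal pairs alone in the fit, 2 with 0.1 CPM added and 2 after thinning every library to the size of the smallest, where 0 ratios were called higher. The cause of these differences was not tested.

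The labels do not say whether libraries of the same number belong together. The deviations of libraries 1, 2 and 3 from their group means had correlations of -0.18, -0.13 and -0.02 between the groups. With so few libraries these values cannot show whether libraries of the same number share a day or batch. With the replicate block, 0 pseudogene rows and 0 parents were called higher, with a median log2 fold change of 0.66 in the pseudogene rows and 3 calls over all genes, and 6 ratios were called lower. Among 49 named genes, Rps25 changed sign, with log2 fold changes from -0.072 to 0.092 as single libraries were left out, and was not called in any of these. Of the other values of named genes under alternatives, 644 stayed on the same side of the threshold, 80 lost and 9 gained a call. Median-of-ratios scaling moved the median of all genes from -0.01 to 0.06. Depth limits rows with few reads, and 77 pseudogene rows were not tested.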
